A study of Mus musculus with 9 samples.

Results

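The regions described here are those bound by Argonaute (AGO) in mouse liver that carried a match of the additional miR-122 class marked "-B" in the deposited names and no match of the canonical miR-122 class. The deposited table listed 92645 unique regions, and 1774 of them met this rule, which used the listed matches and no read count. They are called B-only regions below. Of the others, 8774 had a canonical miR-122 match without a B match, 80 had both, and 82017 had neither.

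The study compared AGO-bound RNA in livers that lacked the liver microRNA miR-122 with livers that had it, by AGO CLIP-seq. In this assay ultraviolet light crosslinks RNA to AGO, the complexes are isolated with an antibody, and the short RNA fragments they protect are sequenced. There were 4 miR-122 KO mice, 1 female (replicate 1) and 3 males (replicates 2 to 4), and 5 floxed littermate controls, 3 females (replicates 1 to 3) and 2 males (replicates 4 and 5). All were 6 weeks old, and each library came from 1 mouse, with its own mouse number in the labels. The labels call the controls WT, and name neither the Cre driver of the KO nor the mouse strain. Whole powdered liver was crosslinked, so all cell types of the organ contributed. In such bulk samples, fewer cells of a type and less RNA per cell cannot be told apart.

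MicroRNAs guide AGO to RNAs by base pairing of a short stretch near the 5′ end of the microRNA, the seed. A canonical match is a run of bases in the target that pairs with the seed without interruption. Its classes run from the longest, 8mer, over 7mer-m8 and 7mer-A1 to 6mer. AGO binding also occurs at sites whose pairing with the seed is imperfect. miR-122 is the most abundant microRNA of hepatocytes and is known for roles in cholesterol and fatty acid metabolism. The labels and file headers do not define the B class, so its letters were read from reference sequence.

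The 6 bases of a deposited match could be read where a match lay inside a RefSeq promoter window (GRCm38.p6, the build that mm10 denotes). This was so for 14 of 1923 deposited B positions, and all 14 read gactcc. All 61 canonical positions read in the same way were cactcc. The B letters thus differed from the canonical ones by C1G, with positions counted from 1 at the 5′ end of the 6 bases in the target and the canonical base named first. All 14 B positions were preceded by T. In the 431 regions that lay whole inside a window, gactcc occurred 22 times. All 12 occurrences after a T were listed as matches, and none of the 10 others was, so the listed matches corresponded to the 7 bases tgactcc. An A followed in 7 of 7 positions deposited as 8mer or 7mer-A1 and in 0 of 7 deposited as 7mer-m8 or 6mer. A or G stood before the T in 8 of 10 positions deposited as 8mer or 7mer-m8. It did so in 0 of 4 deposited as 7mer-A1 or 6mer. The letters that separate 8mer from 7mer-A1 were not settled by so few positions. As a background for this motif, tgactcc occurred on either strand in 1537 of 32851 promoter windows (4.68%).

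The sites below are shown because they were the B-only sites with the letters at hand that lay in a named gene or an LTR repeat, among them 5′ untranslated regions (UTRs). Capitals mark the motif and, where present, the following A. Sequences are from RefSeq, mm10 coordinates, 5′ to 3′ on the strand of the region.
Commd3, coding, chr2:18672513-18672542, plus strand: cccggttccttTGACTCCAacgccttcgcg
Fau, 5′ UTR, chr19:6057948-6057977, plus strand: ttcctctttctTGACTCCAtcttcgcggta
Fam134c, 5′ UTR, chr11:101119807-101119836, minus strand: cggtgttattgTGACTCCcgggccgtggcc
LTR repeat, chr5:113812403-113812432, minus strand: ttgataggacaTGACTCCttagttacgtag
LTR repeat, chr4:117698941-117698970, plus strand: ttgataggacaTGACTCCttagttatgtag
LTR repeat, chr13:21767928-21767957, minus strand: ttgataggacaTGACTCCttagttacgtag
Trmt61b, annotated as lincRNA, chr17:71598387-71598416, minus strand: cctacaggataTGACTCCgaggatcgcgtg
Pla2g6, coding, chr15:79308786-79308815, minus strand: caaccaagggcTGACTCCActgcacctggc
Cd300lg, coding, chr11:102053509-102053538, plus strand: agaccttgcagTGACTCCtgaatgtctcag

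Reads over these sites were mostly few in KO livers. The Commd3 region, in a gene of the COMM domain family, had 2, 1, 1 and 2 counts in KO livers, against 13, 9, 27, 19 and 17 in control livers. The Fau region, in a gene that encodes a ribosomal protein fused to a ubiquitin-like protein, had 6, 0, 2 and 1 counts in KO livers and 23, 9, 68, 32 and 15 in control livers. The LTR copy on chromosome 5 had 2, 0, 2 and 1 counts in KO livers, against 17, 9, 35, 39 and 16 in control livers. Those 3 regions fell (log2 fold changes, KO over control, of -3.55, -3.54 and -4.24, with adjusted p of 2.88e-05, 5.41e-05 and 6.47e-06, edgeR's quasi-likelihood test with Benjamini-Hochberg adjustment over all regions tested). The Trmt61b region had 0 counts in each of the 4 KO livers, against 6, 2, 12, 16 and 9 in control livers, too few to be tested. The Pla2g6 region, in a phospholipase gene, had 1, 1, 3 and 1 counts in KO livers, against 3, 4, 14, 2 and 6 in control livers, and was not tested either. The LTR copy on chromosome 4 had 0 counts in each KO liver, against 4, 5, 7, 6 and 1 in control livers, and the copy on chromosome 13 had 1, 0, 1 and 0 in KO and 5, 3, 6, 12 and 6 in control livers. The Fam134c region, named Retreg3 in the reference, had 0, 1, 0 and 2 counts in KO livers and 3, 3, 12, 13 and 0 in control livers, so the groups overlapped, and it was not tested. The Cd300lg site carried the same 7 bases and had 2, 3, 5 and 1 counts in KO livers, against 2, 0, 3, 2 and 0 in control livers, so there the KO libraries were not lower.

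Library totals over all regions ran from 612479 to 1070610 counts in KO and from 445912 to 1170130 in control livers. Counts per library total are given as CPM, and 3 counts, used as a floor, stood for 2.56 to 6.73 CPM in single libraries. The region over the miR-122 gene had 52, 3, 39 and 16 counts in KO livers, against 447, 270, 378, 396 and 324 in control livers (log2 fold change -3.88 ± 0.47 SE, adjusted p = 4.20e-06, edgeR's quasi-likelihood test). Reads of 10 hepatocyte marker genes summed to 13186 to 20506 CPM in KO and to 26027 to 33058 CPM in control livers. These genes held 5 B-only regions, whose reads are part of the sums, so the sums are not a separate measure of cell content. Reads of 15 neuron marker genes summed to 1920, 2135, 2523 and 8023 CPM in KO livers 1 to 4, against 40.3 to 57.8 CPM in control livers. KO replicate 4 thus stood apart, and it was also the smallest KO library.

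B-only regions lost most of their AGO-bound reads in KO livers. They held 0.997%, 0.812%, 0.852% and 0.830% of all counts in KO livers, against 6.32%, 5.36%, 5.85%, 5.31% and 4.37% in control livers. The mean share was 0.873% ± 0.0843 in KO livers (SD, n = 4) and 5.44% ± 0.728 in control livers (SD, n = 5), 6.23 times as high in control. Counting error was small beside this: the 95% Wilson intervals were 0.978% to 1.02% for the highest KO share and 4.32% to 4.41% for the lowest control share, and cover counting error only. No KO share reached any control share. In counts, the 1774 regions held 32573 reads in the KO livers and 229882 in the control livers. The region with the most reads held 3.79% of the B-only reads of control livers and the top 10 held 17.2%, so the share did not rest on a single region.

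**Figure D1:**
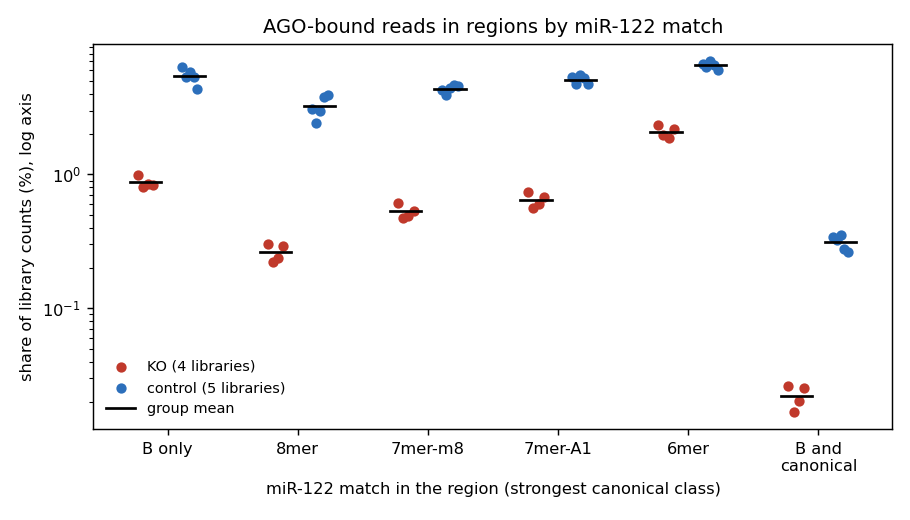
Share of each library's counts (%, log axis) in regions with each kind of miR-122 match, with 1 point for each of 4 KO and 5 control libraries and black bars for group means. The B-only regions sit near 1% in KO and between 4.37% and 6.32% in control livers, while regions without any miR-122 match hold means of 95.6% in KO and 75.03% in control livers.

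The fall of the B-only share lay among those of the canonical classes. Regions with a canonical 8mer held 0.264% of counts in KO and 3.23% in control livers (12.2 times as high in control). The ratio was 8.26 for 7mer-m8 (0.529% in KO and 4.37% in control livers), 7.92 for 7mer-A1 (0.645% and 5.11%) and 3.12 for 6mer regions (2.09% and 6.52%). By ratio the B-only regions stood between canonical 7mer-A1 and 6mer regions. The 80 regions with both kinds of match held 0.0223% of counts in KO and 0.312% in control livers. Differences between classes were not tested. Shares of a library sum to a whole, so a loss in some regions raises the share of the others.

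Of the 1774 B-only regions, 630 had enough reads to be tested, and 538 of these (85.4%) were lower in KO livers at an adjusted p of 0.05 or less. Of all 17182 regions tested, 27.6% were lower. Another 15 B-only regions (2.38%) were higher, against 17.5% of all regions tested, and 77 did not pass in either direction. The groups did not overlap, with every KO library below every control library, in 509 of the 630 (24.0% of all regions tested), and every KO library lay above every control library in 14 (14.4% of all). The filter keeps a region with enough reads in either group alone, so a region with few reads in the other group was tested only because the groups differed. Of the 630, 400 had 10 or more counts over the KO libraries, and 308 of those were lower. Of the tested regions, 11 had no KO read and 3 no control read.

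The median log2 fold change of the tested B-only regions was -3.51, with quartiles of -4.58 and -2.10, against a median of 0.03 over all regions tested. The median was -4.68 for canonical 8mer regions, or -4.50 with regions without a KO read at their bound. It was -3.92 for 7mer-m8, -3.82 for 7mer-A1, -2.99 for 6mer and 0.26 for regions with no miR-122 match. Of the regions without a match, 1838 of 13915 tested were lower and 2958 higher. Of the 32 tested regions with both kinds of match, 30 were lower.

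**Figure D2:**
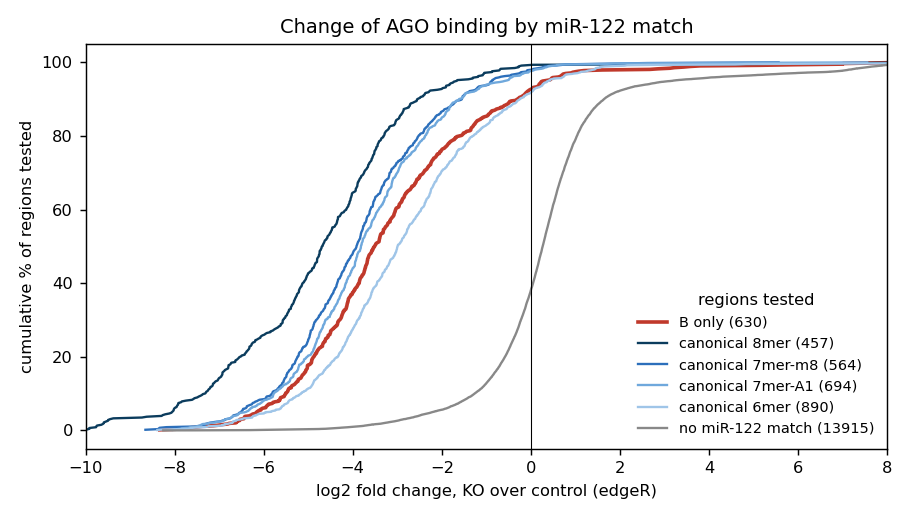
Cumulative percent of tested regions (y axis) below each log2 fold change of KO over control (x axis, edgeR fit), with 1 line for each kind of miR-122 match and the number of regions in brackets. At the quartiles and the median (-3.51) the B-only line lies between the canonical 7mer-A1 and 6mer lines. It lies left of the line for regions with no match, whose median was 0.26.

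All 1774 regions were also tested without the filter on low counts. Then 955 were lower (53.8%, against 11.3% of all 92645 regions) and 77 were higher (12.2% of all regions were higher), with a median of -2.48. In the same fit, canonical 8mer regions were lower in 79.3% (median -4.22) and 7mer-m8 regions in 73.3% (median -3.58). Canonical 7mer-A1 regions were lower in 66.8% (median -3.14) and 6mer regions in 52.0% (median -2.25), so the B-only values were nearest those of 6mer regions. The mean CPM of KO livers was below that of control livers in 1469 of the 1774 (82.8%, against 38.1% of all regions). Every KO library lay below every control library in 835 (8.45% of all regions). The 1144 regions that did not pass the filter held 0.240% of counts in KO and 0.543% in control livers. Among all B-only regions 153 had no KO read and 52 no control read. In the authors' deposited table, whose log2 value is control over KO, 1553 of the 1774 had a value above 0, with a median of 2.75, against 0.0958 over all regions.

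The deposited class of the B match went with the size of the difference. Most B-only regions were deposited as 7mer-m8 (54.2%) or 8mer (29.9%), and fewer as 6mer (9.58%) or 7mer-A1 (6.31%). Among the canonical regions 6mer was the most frequent class, at 34.9%. The 14 B positions read all had a T before the 6 bases, whatever their class, while canonical 6mers followed various bases. The class frequencies are thus not like for like. Of the tested regions, 209 of 230 with an 8mer B match were lower (median log2 fold change -3.72) and 284 of 328 with a 7mer-m8 (median -3.48). It was 24 of 31 with a 7mer-A1 (median -2.23) and 21 of 41 with a 6mer (median -0.94). Without the filter the shares lower were 62.5%, 56.5%, 42.0% and 19.4% in the same order. The share of counts was 7.69 times as high in control livers for 8mer, 7.03 for 7mer-m8, 3.31 for 7mer-A1 and 2.28 for 6mer regions. These are descriptions, and the differences between the classes were not tested.

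In 3′ UTRs the tested 8mer and 7mer-m8 regions had a median of -3.16 (142 of 171 lower) and the 7mer-A1 and 6mer regions -0.95 (12 of 24 lower). In coding sequence the medians were closer, at -3.54 (218 of 241 lower) and -3.22 (23 of 31 lower).

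B-only regions lay more often in coding sequence (36.9%) than canonical regions did (28.4%), and less often in introns (5.92%, against 22.6%). Regions with no miR-122 match lay in coding sequence in 37.2% and in introns in 10.1%, so the B-only share in coding sequence was near theirs. The B-only share in 3′ UTRs was 28.4%, against 24.6% of canonical regions and 33.7% of those with no match. They were also found in LTR repeats, the flanking sequences of retroviral elements, at 9.24% (canonical 5.44%, no match 1.63%) and in pseudogenes at 4.00% (canonical 0.912%, no match 2.10%). These differences were not tested. Of the 272 coding regions tested 241 were lower and 0 higher, with a median log2 fold change of -3.49, and these regions held 0.279% of counts in KO and 1.97% in control livers. Of 195 tested in 3′ UTRs 154 were lower and 11 higher, with a median of -2.92 and a share of 0.403% in KO and 1.60% in control livers. Of 33 in 5′ UTRs 29 were lower (median -3.75). All 28 tested LTR regions were lower (median -4.27), as were 41 of 42 in pseudogenes (median -4.54) and 12 of 18 in introns (median -3.59). Without the filter, only 36 of 105 intronic regions (34.3%) were lower and 18 were higher, with a median of -1.76. The unfiltered shares lower were 55.2% in coding sequence, 45.2% in 3′ UTRs and 57.7% in 5′ UTRs. They were 76.2% in LTR repeats and 81.7% in pseudogenes. For comparison, the median of tested regions without a miR-122 match was -0.04 in coding sequence and 0.54 in 3′ UTRs.

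**Figure D3:**
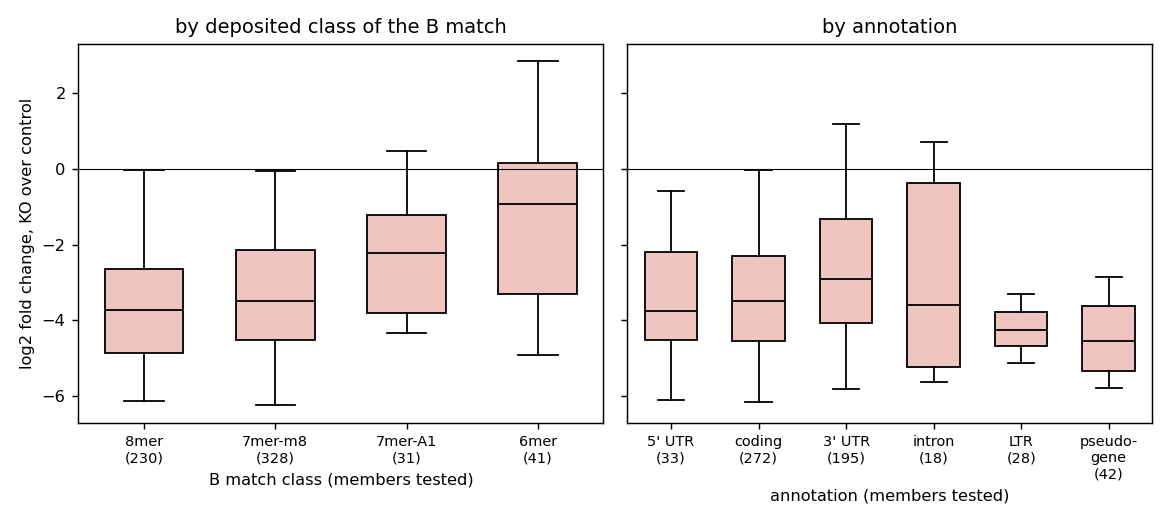
Log2 fold changes of KO over control for the 630 tested B-only regions by deposited class of the B match (left) and for 6 annotation classes (right). Boxes span the quartiles, lines are medians and whiskers reach the 5th and 95th percentiles, with the number of regions in brackets. The 6mer median (-0.94) is closest to 0 among the match classes.

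Sequence was read at the LTR sites on 3 chromosomes only. Over the 30 bases shown, the LTR sites on chromosomes 5 and 13 read the same, and the one on chromosome 4 was nearly so. Of 164 LTR regions 56 carried more than 1 B match. The gap between neighbouring matches of a region was 35 bases in 58 cases, all of them in LTR regions. No source used here says how reads from near-identical copies were placed, so LTR regions, pseudogenes and members of gene families are uncertain as single loci. Without the LTR and pseudogene regions 469 B-only regions were lower and 15 higher, with a median of -3.32.

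Where the match lay in the region also went with the difference. In the 538 B-only regions that were lower, the match lay a median of 5 bases to the 3′ side of the middle of the region, and within 10 bases of it in 397 (73.8%). In the 92 that were tested and not lower it lay within 10 bases in 21 (22.8%). Regions are 70 bases wide at the median. With the match within 10 bases of the middle, 397 of 418 tested regions were lower and 2 higher (median log2 fold change -3.84), and the share of counts was 10.3 times as high in control livers. With the match farther away, 141 of 212 were lower and 13 higher (median -2.27), and the ratio was 3.22. The BC005537 region, with several B matches, was counted here by the match at -16 bases. It held 8718 of the 68746 control counts of this set. Without the filter, 680 of 1059 (64.2%) regions were lower in the first case and 275 of 715 (38.5%) in the second. Canonical regions showed medians of -4.05 and -2.72 for the same split.

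Match class and position were also combined. Of 377 tested 8mer and 7mer-m8 regions with the match near the middle 364 were lower and 2 higher (median -3.90). Of 181 with the match farther away 129 were lower and 7 higher (median -2.57). Of 41 tested 7mer-A1 and 6mer regions with the match near the middle 33 were lower and 0 higher (median -3.01). Of 31 tested 7mer-A1 and 6mer regions with the match farther away 12 were lower and 6 higher, with a median of -0.55.

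**Figure D4:**
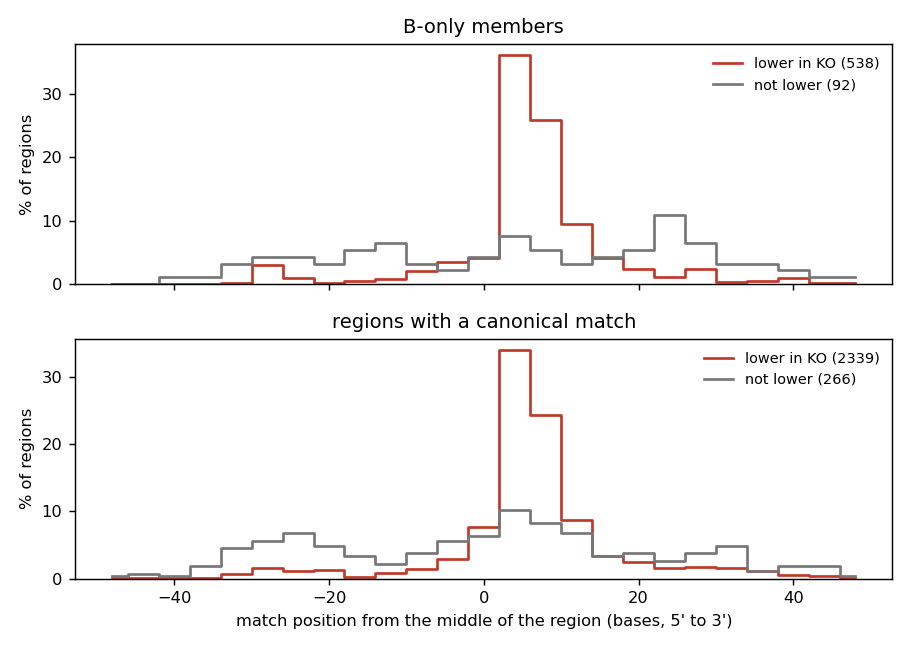
Percent of tested regions (y axis) by distance of the miR-122 match from the middle of the region (x axis, bases, 5′ to 3′), for B-only regions (top) and canonical regions (bottom), each split into regions lower in KO and not lower. In the B-only regions that were lower the matches gather around 5 bases past the middle, while in the 92 others they are spread over the region.

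Many B-only regions also carried a match of another of the deposited microRNA families. Of 337 tested regions with no other match 316 were lower (median log2 fold change -3.85), of 186 with 1 other match 150 (median -3.16) and of 107 with 2 or more 72 (median -2.33). The most common partner was the miR-27 family, in 140 regions, of which 56 were tested and 44 lower (median -3.01). Of 20 tested regions with a match of the miR-29 family 10 were lower (median -1.15). The listed B match shared bases with another family's match in 128 regions, and 40 of the 48 of these that were tested were lower (median -2.71). In 61 regions a miR-27 match began 4 bases upstream of the B match, so that the bases ctgtga overlapped the tgactcc, and all 61 were deposited as 8mer or 7mer-m8. A miR-23 match (atgtga) lay in the same place in 32 regions, also all 8mer or 7mer-m8. Both overlaps put a G before the T of tgactcc. Among the B positions read, A or G stood there only in those deposited as 8mer or 7mer-m8. The class in these regions was thus not independent of the overlapping letters.

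Conservation of the 6 bases, given by the authors as mean phyloP, went little with the median difference. The median log2 fold change was -3.39 in 289 tested regions with a mean phyloP of 1 or more and -3.41 in 311 with a lower one. Of the 289, 251 were lower and 3 higher, and of the 311, 258 and 12. Over all regions of each kind, the share of counts was 6.83 and 5.60 times as high in control livers. In coding sequence the medians were -3.54 and -3.38, with 189 of 208 and 52 of 64 tested regions lower. The share ratios there were 7.93 and 5.59. No score was given for 184 regions, of which 29 of 30 tested were lower. These differences were not tested.

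The single region with the most B-only reads lay in the 5′ UTR of BC005537 (chromosome 13, 24802526 to 24802595, plus strand) and held 2 B matches 21 bases apart. It had 53, 16, 23 and 10 counts in KO livers, against 1906, 934, 2540, 2381 and 957 in control livers. The mean was 26.5 ± 17.6 CPM in KO (SD, n = 4) and 2067 ± 506 CPM in control livers (SD, n = 5), and the log2 fold change -6.15 ± 0.34 (SE, adjusted p = 1.001e-08, edgeR's quasi-likelihood test). The 5′ UTR region of Lifr, the receptor of leukemia inhibitory factor, was high as well, with 113, 156, 151 and 48 counts in KO livers, against 907, 269, 1155, 1174 and 605 in control livers. It kept more of its reads than BC005537, with a log2 fold change of -3.03, and the groups did not overlap in either region. The 5′ UTR region of Serpina1c, an alpha-1-antitrypsin gene with near copies, fell by 4.39 on the log2 scale.

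Among coding regions with the smallest p, the one in Canx, which encodes the chaperone calnexin of the endoplasmic reticulum, had 6, 4, 5 and 2 counts in KO livers, against 132, 93, 224, 260 and 185 in control livers. Its mean was 4.45 ± 1.16 CPM in KO (n = 4) and 212 ± 24.2 CPM in control livers (n = 5), 47.7 times as high in control, and the log2 fold change was -5.62 ± 0.31 (SE, adjusted p = 1.001e-08, edgeR). In Lrp10, a member of the low-density lipoprotein receptor family, the counts were 15, 8, 13 and 5 in KO and 394, 187, 538, 572 and 277 in control livers (log2 fold change -5.38). The region in Usp10, a deubiquitinase, had 2, 1, 4 and 0 counts in KO livers, against 253, 94, 313, 273 and 136 in control livers (log2 fold change -6.92 ± 0.43 SE, or -7.54 without KO replicate 3). All control libraries stood far above all KO libraries in each of these genes. Regions in Synrg, a clathrin adaptor partner, Acin1, a nuclear factor of RNA processing, and Gtf3c3, a subunit of a transcription factor of RNA polymerase III, fell, with log2 fold changes of -5.89, -6.29 and -5.89.

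In 3′ UTRs the region of Atp5g3, a gene for the c subunit of the mitochondrial ATP synthase, had 83, 41, 45 and 24 counts in KO livers, against 989, 586, 1579, 1740 and 1119 in control livers. This is 50.9 ± 21.1 CPM in KO and 1417 ± 77.6 CPM in control livers (log2 fold change -4.80 ± 0.30 SE, adjusted p = 1.25e-08, edgeR). The region of Hsd3b7, an early enzyme of bile acid synthesis, had 36, 15, 13 and 6 counts in KO livers, against 800, 335, 1171, 915 and 389 in control livers (log2 fold change -5.38). The region of Vps4b, an ATPase that disassembles the membrane-remodelling ESCRT machinery, had 7, 3, 4 and 4 counts in KO livers, against 442, 233, 515, 438 and 169 in control livers (log2 fold change -6.25). In none of these did the groups overlap. Regions of the ubiquitin ligases Itch and Brap and of the dynein light chain gene Dynlt1c, which has near copies, fell, with log2 fold changes of -5.47, -5.94 and -5.64. The region of Crebrf, a regulator of the transcription factor CREB3, had 0, 0, 0 and 2 counts in KO livers, against 127, 42, 212, 251 and 90 in control livers. Its pooled level was 319 times as high in control livers, with an exact 95% counting interval of 87.9 to 2637.

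No KO read was counted in 5 regions that were among those with the most negative fits. The Pgls region, in a gene of the pentose phosphate pathway, had 24, 23, 70, 74 and 15 counts in control livers, at least 57.1-fold lower in KO livers against a floor of 3 counts over the KO group. The bound was at least 50.9-fold lower in Rfx4, 42.9-fold in the region named Atrip, 41.4-fold in Xylb, the xylulokinase gene, and 33.4-fold in Uhrf2. The reference lists Trex1 and not Atrip alone at that position, so its gene is uncertain. Among pseudogenes, the regions named Gm8210, Gm12070, Gm4609 and Gm14760 fell, with log2 fold changes of -5.79, -5.02, -5.48 and -5.46. The most read LTR region, on chromosome 2 from 75642475 to 75642544, had 76, 10, 29 and 16 counts in KO livers, against 641, 283, 996, 1020 and 508 in control livers (log2 fold change -4.50, or -5.21 without KO replicate 1).

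Among genes of liver metabolism, lists of 20 genes of bile acid and sterol metabolism, 20 of fatty acid metabolism, 15 of amino acid and urea metabolism, 16 of carbohydrate metabolism and 20 of plasma proteins held 25 B-only regions. Of these, 14 were tested, 12 were lower, 0 were higher and 2 did not pass. Among all tested B-only regions 85.4% were lower, so these lists lay near that share. Among all regions tested 27.6% were lower. The median log2 fold change was -2.37 for the 4 tested regions of fatty acid genes and -3.69 for the 5 of plasma protein genes. Of 24 genes reported as miR-122 targets, 1 held a B-only region, in Smarcd1, and it had too few reads to be tested.

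The Gls2 region, in the 3′ UTR of the liver glutaminase gene, had 49, 2, 15 and 12 counts in KO livers, against 419, 388, 674, 687 and 460 in control livers (log2 fold change -4.92, or -5.73 without KO replicate 1). In Arg1, the arginase of the urea cycle, the coding region had 28, 29, 19 and 8 counts in KO livers, against 104, 56, 173, 143 and 90 in control livers (log2 fold change -2.58). The region of Gys2, the liver glycogen synthase, had 2, 3, 0 and 0 counts in KO livers and 49, 25, 57, 57 and 26 in control livers (log2 fold change -5.06, or -5.72 without KO replicate 2). In each of these every KO library lay below every control library. The 3′ UTR region of Insig1, which retains the sterol sensor complex in the endoplasmic reticulum, had 12, 20, 12 and 16 counts in KO livers and 175, 117, 197, 282 and 78 in control livers (log2 fold change -3.60). A second gene annotated there makes its source uncertain.

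All 4 tested regions of fatty acid genes were lower in KO livers. The 3′ UTR region of Dgat2, which makes triacylglycerol, had 18.9, 14.6, 17.7 and 6.53 CPM in KO livers, against 71.9, 47.1, 107, 89.7 and 51.01 CPM in control livers (log2 fold change -2.33). The coding region of Acadm, an acyl-CoA dehydrogenase of fatty acid oxidation, fell by 2.42 on the log2 scale. The 3′ UTR region of Cyp4a14, a fatty acid hydroxylase with near copies, had 32.8, 12.7, 14.9 and 4.90 CPM in KO livers, against 739, 736 and 604 CPM in the female and 160 and 64.4 CPM in the male control livers. Its log2 fold change was -3.84, and -4.82 without sex in the model. The coding region of Hadha, a subunit of the mitochondrial trifunctional protein, had 8, 7, 8 and 4 counts in KO livers and 31, 16, 23, 12 and 9 in control livers (log2 fold change -1.30 ± 0.45 SE, adjusted p = 0.0272, edgeR). That call was lost with upper quartile scaling (adjusted p = 0.0618) and without control replicate 5 (0.0536), KO replicate 1 (0.351) or KO replicate 2 (0.0603).

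Among plasma protein genes, the region of F2, prothrombin, had 33.8, 12.7, 11.2 and 6.53 CPM in KO livers and 197, 274, 244, 198 and 197 CPM in control livers (log2 fold change -3.69), and a LINE-annotated region of the albumin gene Alb fell by 5.02 on the log2 scale. The coding region of Trf, transferrin, had 172, 184, 145 and 77 counts in KO livers, against 118, 72, 210, 178 and 158 in control livers. Its means were 153 ± 26.2 CPM in KO and 175 ± 23.7 CPM in control livers, and it did not pass the test (log2 fold change -0.26 ± 0.23 SE, adjusted p = 0.399, edgeR), although its 7mer-m8 match lay 2 bases from the middle of the region. The coding region of Apob did not pass either, with 43, 68, 75 and 32 counts in KO livers and 33, 13, 50, 56 and 61 in control livers (log2 fold change -0.06, adjusted p = 0.869, edgeR). The sign of that value turned with upper quartile scaling (0.17), without sex in the model (0.16), with the replicate number as a block (0.45), and without control replicate 5 (0.21) or KO replicate 2 (0.08).

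Ankrd52, which encodes a regulatory subunit of protein phosphatase 6, was the gene with 3 tested B-only regions. The one with an 8mer match downstream of the gene had 1, 1, 2 and 1 counts in KO livers, against 14, 12, 34, 33 and 13 in control livers (log2 fold change -4.10, adjusted p = 4.05e-06, edgeR). The 3′ UTR region with a 7mer-A1 match had 4, 6, 4 and 12 counts in KO livers and 8, 2, 17, 17 and 11 in control livers (log2 fold change -0.97, adjusted p = 0.192, edgeR). Without KO replicate 4 that value was -1.69 and passed (adjusted p = 0.00744). The 6mer region downstream had 14, 16, 15 and 3 counts in KO livers and 12, 1, 15, 8 and 3 in control livers, and did not pass (log2 fold change 0.62, adjusted p = 0.346, edgeR).

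**Figure D5:**
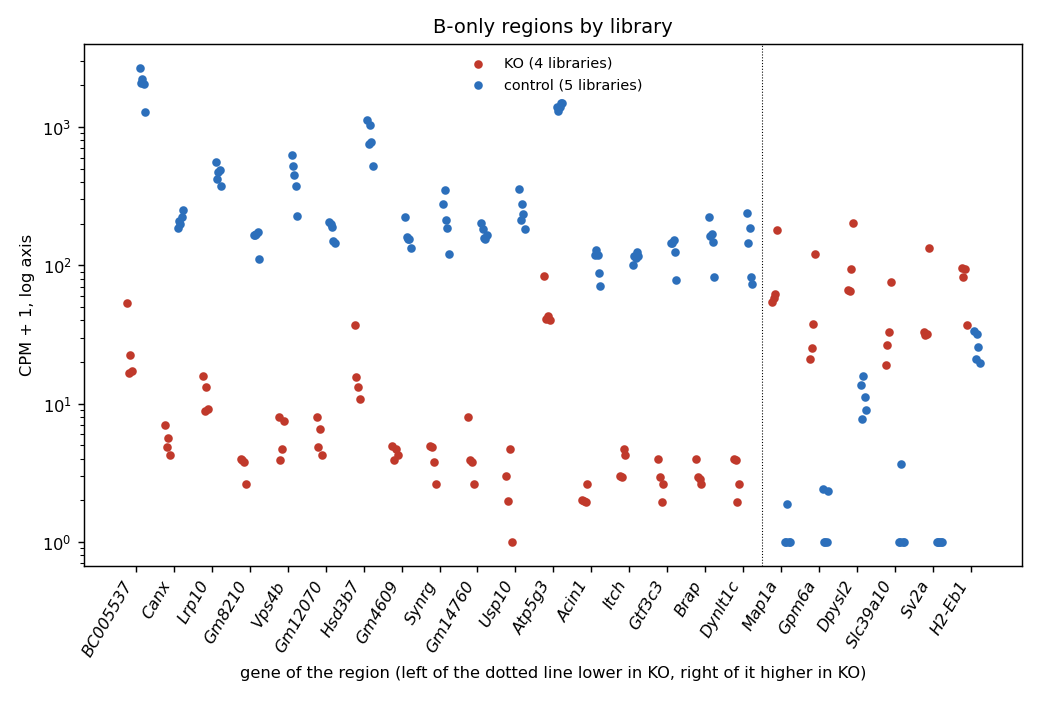
CPM plus 1 (log axis) of 23 named B-only regions in each of 4 KO (left of each pair) and 5 control libraries. In the 17 regions left of the dotted line every control library lies above every KO library, and in the 6 right of it every KO library lies above every control library.

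The 15 B-only regions that were higher in KO livers lay mostly in 3′ UTRs (11 of 15), and their B match was within 10 bases of the middle in 2. Higher calls were more frequent in 3′ UTRs in other regions too. Of tested regions without a miR-122 match, 31.1% were higher in 3′ UTRs and 9.68% in coding sequence. Among canonical regions it was 19 of 808 and 5 of 1057. Several of the 15 B-only regions lay in genes known from neurons. The 3′ UTR region of Map1a, a microtubule-associated protein of neurons, had 54, 59, 65 and 110 counts in KO livers, against 0, 0, 1, 0 and 0 in control livers (log2 fold change 7.64 ± 0.81 SE, adjusted p = 1.03e-06, edgeR). With a single control read, the pooled ratio of KO to control was 326, with an exact 95% counting interval of 58.1 to 12926. The region of Gpm6a, a neuronal membrane glycoprotein, had 20, 25, 39 and 73 counts in KO and 1, 0, 0, 0 and 1 in control livers (log2 fold change 5.95, pooled ratio 88.9, counting interval 24.2 to 740.5). The region of Dpysl2, a protein of axon growth, had 66, 66, 99 and 124 counts in KO livers, against 9, 3, 17, 12 and 6 in control livers (log2 fold change 3.12).

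The region named Sv2a, after a synaptic vesicle protein, had 32, 31, 33 and 81 counts in KO livers and 0 in all 5 control livers, at least 78.9-fold higher in KO against a floor of 3 counts over the control group. It overlaps no gene in the reference table. The region of Slc39a10, a zinc importer, had 18, 26, 34 and 46 counts in KO and 0, 0, 3, 0 and 0 in control livers (log2 fold change 5.16, pooled ratio 46.8, counting interval 15.6 to 230.1). In 13 of the 15 regions KO replicate 4 was the highest KO library, at a median of 2.79 times the mean of the other three over the 15. The neuron markers moved with these regions: all 15 had reads, their sum was highest in KO replicate 4, and 6 of them were at 0 in all control livers. Their part in the result was not tested. Without KO replicate 4, 17 B-only regions were higher, and the log2 fold changes were 7.13 for Map1a, 5.20 for Gpm6a, 2.61 for Dpysl2 and 4.69 for Slc39a10. Other libraries moved several of these values further. Without KO replicate 1 they were 9.55 for Map1a, 6.57 for Gpm6a, 3.76 for Dpysl2 and 8.34 for Slc39a10. Without control replicate 3, which held every control read of both regions, they were 9.17 for Map1a and 7.88 for Slc39a10. Without control replicate 4 they were 7.01 for Map1a, 5.10 for Gpm6a and 4.41 for Slc39a10, and without control replicate 1 the value was 6.61 for Gpm6a. H2-Eb1, a class II histocompatibility gene of antigen-presenting cells, differed from these, with 95, 83, 99 and 22 counts in KO livers, against 23, 9, 35, 29 and 14 in control livers (log2 fold change 1.61, adjusted p = 1.78e-04, edgeR). Its match was a 6mer 17 bases from the middle of the region. Reads of 5 detected macrophage markers summed to 194 to 429 CPM in KO and to 192 to 230 CPM in control livers. Stellate cell markers summed to 976 to 1785 CPM in KO and to 507 to 658 CPM in control livers, and 3 detected cholangiocyte markers to 73.1 to 112 CPM in KO and to 13.2 to 36.2 CPM in control livers, with no overlap between the groups. The part of these cell types was not tested.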

How the data were processed

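AGO CLIP-seq reads of 9 mouse livers were counted by the authors over regions. The submitters' processing notes name Bowtie2 and the build mm10. No peak caller, duplicate treatment or counting rule is named in them. The deposited table held 143524 rows, 1 per region and match, with raw read counts per library, per the file headers. The authors' deposited log2 value is control over KO, per the file headers, and the deposited conservation score is the mean phyloP over a match.

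The test of unique regions used edgeR 4.0.16 under R 4.3.3, with limma 3.58.1: filterByExpr, TMM, glmQLFit and glmQLFTest with genotype and sex over all 9 libraries and all 17182 regions passing, with Benjamini-Hochberg adjustment at 0.05. An SE beside a log2 fold change was derived from that test's statistic. Every adjusted p is from this test unless another is named. Alternatives were DESeq2 1.42.0, other scalings and filters, no sex term, the replicate block and leaving out each library. Libraries held 445912 to 1170130 counts. Amplified reads are not independent molecules, and intervals and floors reflect counting error alone. Every replicate pair differed by more than counting noise (chi-square over its degrees of freedom, 2.67 to 10.6). Samples with the same replicate number did not deviate together (correlations -0.0889 to 0.00109), and the main test used no pairing. These values cannot tell whether same-numbered mice came from the same litter, and for some numbers the sexes differed.

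The regions and gene lists were chosen with earlier results of these data known. Named genes were taken by rank: the 12 lower regions with the smallest p, 6 each in 3′ UTRs and coding sequence, the 6 most negative, the 5 with the highest control CPM, the 6 higher with the smallest p, tested regions of listed genes, and genes with 3 or more tested regions. Of 1235 exonic regions with a gene name, 98.3% overlapped that gene in the reference. On simulated counts for the 17182 regions, the test recovered 76% of regions lowered by a log2 fold of -4, 60% of those at -2 and 10% of those at -1. It recovered 90% of those raised by 2, and 7 unchanged regions were called. Levels were simulated from each region's mean over both groups. Regions dropped by the filter counted as not recovered, and direction was not checked. These percentages are thus not the sensitivity for the tested B-only regions. Python 3.11.15, pandas 2.3.3 and matplotlib 3.10.9 were used.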

Additional observations from a re-analysis of the deposited data

Results flagged for a closer look

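In 110 groups of libraries of the named regions and marker lists, 18 single libraries lay apart from the rest of their group by Dixon's test at its 95% level, which chance passes in about 5% of groups. KO replicate 4 accounted for 10 of them. It was high for the regions of Map1a (179.6 CPM, others up to 60.7), Gpm6a (119 CPM, others up to 36.4) and Sv2a (132 CPM, others up to 31.8), and for the summed neuron markers (8023 CPM, others up to 2523). The same library was high for the Ankrd52 3′ UTR region (19.6 CPM, others up to 5.85) and low for the 6mer region downstream of that gene (4.90 CPM, others from 13.9). It was low for Gm8210 (1.63 CPM, others from 2.80) and for the endothelial markers (214 CPM, others from 444). For Acin1 each KO library had 1 read, so KO replicate 4 stood above the others (1.63 CPM, others up to 0.994) only through its smaller total. For Crebrf it alone had reads, 2 in number (3.27 CPM, others at 0). A group with reads in a single library is always flagged, so the 5% level does not hold at such low counts. The 18 flags and the 10 of KO replicate 4 include such cases.

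KO replicate 1, the female KO, was high for BC005537 (52.7 CPM, others up to 21.5) and Atp5g3 (82.5 CPM, others up to 42.0), and stayed far below the controls in both. Among control libraries, replicate 5 was low for Gm8210 (110.1 CPM, others from 163) and high for the cholangiocyte markers (36.2 CPM, others up to 17.9). Replicate 1 was high for Gm4609 (224 CPM, others up to 159) and replicate 2 for Gls2 (870.1 CPM, others up to 618). Replicate 3 alone had reads for Map1a (0.879 CPM) and Slc39a10 (2.64 CPM), so it was flagged there by construction.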

How the results depend on the processing

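The 538 B-only regions lower in KO and the median of -3.51 depended on the filter: without it 955 were lower and 77 higher, with a median of -2.48, since 1774 regions were then tested. Restricting the regions gave 316 lower and 7 higher and a share in KO of 0.110 times that in control for those without another family's match, and 154 lower, a median of -2.92 and a share ratio of 0.252 in 3′ UTRs; each set is smaller by construction. Leaving out each library in turn gave 414 to 625 lower, 12 to 17 higher, medians from -3.80 to -3.46 and share ratios from 0.153 to 0.167. The share ratio was 0.160 over all regions and 0.184 with upper quartile scaling. That scaling also moved the median of all tested regions to 0.26 and the higher regions to 49.3% of all calls, against 38.8% with TMM, with 523 B-only regions lower and 20 higher. With the replicate block 534 were lower and 17 higher, and the median was -3.69; 532 of the 538 kept their call, and the block gave -5.21 for Cyp4a14, -5.998 for Alb, -6.27 for Dynlt1c and 7.16 for Gpm6a. No region of the 538 turned its sign in any fit that tested it. DESeq2 gave 534 lower and 15 higher, and TMM factors from regions without a miR-122 match 547 and 14. Leaving out LTR repeats and pseudogenes, and TMM over all regions, were chosen after seeing the data. For the 47 named regions, 833 of 843 results under alternatives kept direction and call; the exceptions were Hadha (4 calls lost), the Ankrd52 3′ UTR region (1 gained) and Apob, whose sign turned 5 times, with values of 0.17 (upper quartile), 0.16 (no sex), 0.45 (replicate block), 0.21 (without control replicate 5) and 0.08 (without KO replicate 2), and a range of -0.33 to 0.21 over the libraries left out; the cause was not tested. Low depth limits the 1144 untested regions.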
